A study of Mus musculus with 8 samples.

Results

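The 10 genes described here encode the receptors and ligands of the VEGF and angiopoietin systems. They are the VEGF receptors Kdr, Flt1 and Flt4, the co-receptors Nrp1 and Nrp2, the angiopoietin receptor Tek with its relative Tie1, and the ligands Vegfa, Angpt1 and Angpt2. They were taken by name from a table of 24015 genes, and all 10 were among the 13908 genes with enough reads to be tested. RNA-Seq was carried out on 8 samples of 100 cells from E11.5 mouse embryos, sorted from the aorta-gonad-mesonephros region with its vitelline and umbilical arteries (AGM+VU). Cells of hematopoietic clusters were sorted as Ter119- VE-Cadherin+ c-Kit+, and endothelium as Ter119- VE-Cadherin+ c-Kit- CD41- CD45-. Each was taken from embryos of 2 genotypes: wild type, and Sl/Sl, homozygous for a germline deletion that takes in Kitl, the gene for Kit ligand. This makes 4 groups of 2 libraries, and the embryos pooled for a library had 1 genotype. The study sorted cells in 2 experiments, and no source used here says which library came from which.

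As background, blood stem cells first form in the mid-gestation embryo from specialized endothelium of large arteries, through groups of rounded cells attached to the vessel lining. Vegfa is secreted by many cells and binds Kdr, which carries most of its growth and survival signal in endothelium, and Flt1, which binds it tightly and signals little. Flt4 is the receptor of Vegfc and Vegfd, and the neuropilins Nrp1 and Nrp2 present VEGF to these receptors. Angpt1 activates Tek (Tie2), Angpt2 often blocks that activation, and Tie1 has no well established ligand and modulates Tek. Tek and Angpt1 are also known from hematopoietic stem cells, where both are transcribed.

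The labels were first set against the genes they rest on. In endothelium the wild type libraries held 1250 and 923 counts of Kitl, and those of Sl/Sl held 6 and 2. The wild type clusters held 110 and 0 counts of Kitl, the latter allowing up to 3, and the Sl/Sl clusters 1 and 3. Cdh5, which encodes VE-Cadherin, lay at 453 to 655 CPM in the 4 endothelium libraries (counts scaled to totals of 1e+06 after TMM), against 11.99 to 218 CPM in the 4 cluster libraries. Kit went the other way, at 64.1 to 84.7 CPM in endothelium and 225 to 379 CPM in clusters. Ptprc, the gene for CD45, reached at most 1.27 CPM in endothelium, against 106 to 304 CPM in clusters. Itga2b, the gene for CD41, overlapped between the cell types, at 4.21 to 10.7 CPM in endothelium and 8.95 to 22.0 CPM in clusters. The counts on genes summed to between 8933236 and 13428214 per library.

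The cluster libraries differed from each other in the level of endothelial markers, which is given here because the receptors below are also made by endothelium. The summed level of 10 endothelial markers, all 10 above 3 counts in every library, was 1242 and 499 CPM in wild type clusters, 3363 and 853 CPM in Sl/Sl clusters, and between 6952 and 8013 CPM in the endothelium libraries. The 10 hematopoietic markers summed to 1019 to 1289 CPM in clusters and 91.8 to 101 CPM in endothelium. Of the 12 mesenchymal and perivascular markers, Sl/Sl clusters replicate 2 held 5797 CPM, apart from the other 7 libraries, which held 395 to 2133 CPM. The 8 megakaryocyte markers were at 1138 and 1678 CPM in replicate 2 of the wild type and Sl/Sl clusters and at 127 and 259 CPM in replicate 1. The 10 macrophage markers were at 278 to 862 CPM in clusters and 6.92 to 34.96 CPM in endothelium, and the 8 erythroid markers ranged from 24.4 to 266 CPM over all libraries. What part these other cells have in the results below was not tested. In such bulk samples, fewer cells of a type and less RNA per cell cannot be told apart.

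The receptors were the most abundant members in endothelium and the ligand Angpt1 was among the most abundant in clusters. On the RPKM scale, which divides the counts by gene length and library total, Nrp1 was the highest in wild type endothelium at 166 ± 11.4 (SD, n = 2). Tek followed at 116 ± 10.3, Tie1 at 77.0 ± 20.0, Kdr at 68.9 ± 13.3 and Flt4 at 47.9 ± 25.6. The ranges of Tie1, Kdr and Flt4 overlapped, so these 3 could not be ordered. Flt1 at 15.6 ± 0.64, Nrp2 at 8.67 ± 0.41 and Vegfa at 5.02 ± 1.25 were lower and did not overlap each other. Angpt1 at 0.28 ± 0.11 and Angpt2 at 0.39 ± 0.56 came last.

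In wild type clusters Angpt1 had the highest mean, at 33.2 ± 11.96 RPKM (SD, n = 2). Nrp1 at 22.9 ± 15.6, Tek at 20.3 ± 20.7 and Tie1 at 18.8 ± 22.0 RPKM came next, and the ranges of all 4 overlapped. Kdr stood at 5.94 ± 5.90, Angpt2 at 3.35 ± 1.73, Flt1 at 2.58 ± 0.05, Vegfa at 2.02 ± 0.73 and Flt4 at 1.83 ± 2.49 RPKM. Among Kdr, Angpt2, Flt1, Vegfa and Flt4, the ranges of Kdr and of Flt4 overlapped those of all the others. Flt1 and Vegfa, at 2.55 and 2.54 where they came closest, just missed each other. Nrp2 had the lowest mean, 0.68 ± 0.29 RPKM, within the range of Flt4. In Sl/Sl clusters Nrp1 led at 57.2 ± 0.10 RPKM, above both libraries of each other member, with Tek at 32.7 ± 27.9, Angpt1 at 27.9 ± 14.8 and Tie1 at 22.2 ± 12.9 RPKM next.

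**Figure D1:**
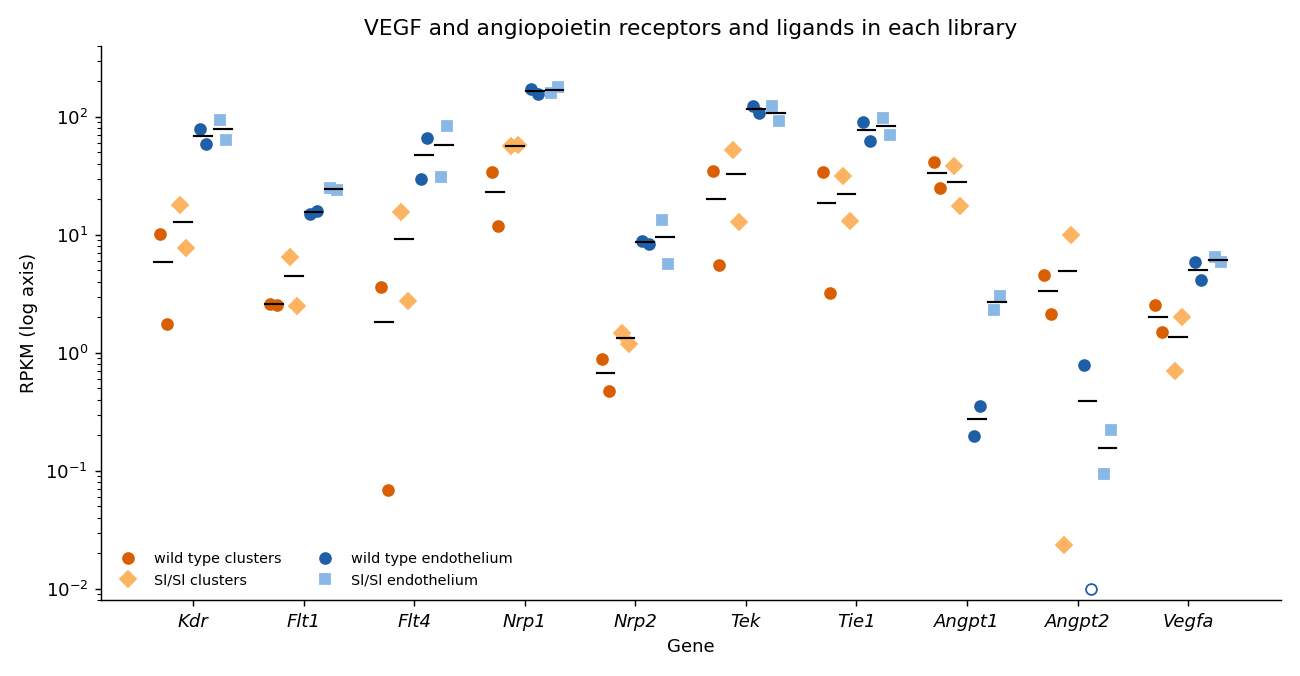
RPKM of the 10 genes (log axis) in each of the 8 libraries, 1 point per library, coloured by group, with a bar at the mean of the 2 libraries of a group. The receptors lie higher in endothelium than in clusters and Angpt1 lies lower, and the open circle at the foot of the axis is Angpt2 in wild type endothelium replicate 2, which had 0 counts.

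The start of each gene gives the sequence beside which these levels can be read. The 200 bases before the first listed exon base were read from the NCBIM37 genome, on the strand of the gene, and searched on both strands for 4 motifs named for the factors that bind them. The stretches are shown for Kdr and Tek, which did not hold the letters GGAAG on either strand, and for Flt1 and Tie1, which held them 3 and 4 times. That of Angpt1, which was lower in endothelium than in clusters, is shown as well. Capitals mark GGAAG or its reverse complement CTTCC, which is one form of the site that ETS factors bind in many endothelial genes. Other forms of the site, which share a shorter core, were not searched.
Kdr: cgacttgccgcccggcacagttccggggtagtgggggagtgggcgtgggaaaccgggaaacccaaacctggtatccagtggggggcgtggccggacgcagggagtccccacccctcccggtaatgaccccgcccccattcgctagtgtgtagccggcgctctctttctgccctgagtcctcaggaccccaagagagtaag
Flt1: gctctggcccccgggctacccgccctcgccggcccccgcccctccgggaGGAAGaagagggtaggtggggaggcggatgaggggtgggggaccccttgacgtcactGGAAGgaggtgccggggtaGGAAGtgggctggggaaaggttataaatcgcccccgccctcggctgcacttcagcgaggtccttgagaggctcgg
Tek: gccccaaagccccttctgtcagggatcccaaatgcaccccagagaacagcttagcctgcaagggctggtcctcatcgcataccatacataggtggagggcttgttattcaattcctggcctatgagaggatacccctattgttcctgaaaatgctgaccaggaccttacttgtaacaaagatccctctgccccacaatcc
Tie1: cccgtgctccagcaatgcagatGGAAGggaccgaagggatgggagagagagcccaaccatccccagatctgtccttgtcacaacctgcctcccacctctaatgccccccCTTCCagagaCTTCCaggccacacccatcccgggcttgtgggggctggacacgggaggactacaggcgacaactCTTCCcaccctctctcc
Angpt1: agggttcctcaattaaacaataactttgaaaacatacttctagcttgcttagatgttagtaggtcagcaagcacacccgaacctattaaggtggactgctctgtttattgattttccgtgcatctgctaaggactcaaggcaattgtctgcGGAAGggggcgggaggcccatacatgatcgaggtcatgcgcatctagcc
They lie at chr5:76374454-76374653 on the minus strand for Kdr, chr5:148537565-148537764 on the minus strand for Flt1, chr4:94405780-94405979 on the plus strand for Tek, chr4:118162455-118162654 on the minus strand for Tie1 and chr15:42508524-42508723 on the minus strand for Angpt1. GGAAG was found in 7 of the 10 members and in 56.7% of 23808 windows of the same length before the genes of the table. A GATA site, AGATAA or TTATCT, was found before 1 member, Vegfa, and in 6.83% of windows. The letters TGTGGT or ACCACA, for RUNX, and ACGTG or CACGT, of the hypoxia response element, were found before 0 of the 10 and in 9.73% and 14.7% of windows. The start taken is the outermost exon base in the table, and other starts of a gene were not searched.

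Endothelium was then compared with clusters, within wild type, within Sl/Sl and averaged over both, to see which parts of the 2 systems go with each cell type. In wild type, 6 of the 10 members passed the threshold (edgeR quasi-likelihood test over all genes, adjusted p under 0.1), where 8.24% of all 13908 genes did. The 5 that rose in endothelium were Kdr, Flt1, Flt4, Nrp1 and Nrp2, and Angpt1 fell, where 4.56% of all genes rose and 3.68% fell. In Sl/Sl, 4 of 10 passed, against 2.83% of all genes: Flt1, Nrp1 and Nrp2 rose and Angpt1 fell, where 0.985% of all genes rose and 1.84% fell. Averaged over genotypes, 9 of 10 passed, against 16.6% of all genes, with 8 higher, Angpt1 lower and Angpt2 not called, where 8.48% of all genes rose and 8.12% fell. The median log2 fold change of the 10 members in the average was 2.30, and that of all genes tested was -0.07. Without any 1 of its 4 libraries the Sl/Sl count fell to 0 or 1 members, and without 1 library the wild type count lay between 4 and 8 and that of the average between 6 and 8. The 2 libraries of each group did not overlap for 10 members in wild type and 9 in Sl/Sl, shares to be read against 50.6% and 46.4% of all genes.

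Of the VEGF receptors, Kdr lies at chr5:76329299-76374453 (mm9, minus strand, 30 exon segments). Its levels in wild type clusters were 51.1 and 9.42 CPM, and in Sl/Sl clusters 96.9 and 39.4 CPM. The wild type endothelium libraries held 435 and 343 CPM and the Sl/Sl ones 532 and 372 CPM. Every endothelium library was thus above every cluster library, and the 4 cluster libraries spread far more on a ratio scale. The log2 fold change, endothelium over clusters, was 3.69 ± 0.74 (SE) in wild type (12.9-fold, adjusted p = 0.0253, edgeR quasi-likelihood test) and 2.73 ± 0.71 in Sl/Sl (adjusted p = 0.116). Averaged over genotypes it was 3.21 ± 0.51 (adjusted p = 0.00508). The wild type value was 5.37 without wild type clusters replicate 1 and 2.89 without wild type clusters replicate 2, and the average was 4.05 without the former. Without wild type endothelium replicate 1, the wild type value was 3.50 with an adjusted p of 0.101.

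Flt1, at chr5:148373772-148537564 (mm9, minus strand), encodes the receptor that binds VEGF tightly, and its reads here can come from the membrane and the soluble form alike. It had 15.3 and 15.7 CPM in wild type clusters and 40.2 and 14.8 CPM in Sl/Sl clusters, where replicate 1 stood above the other 3 cluster libraries. In endothelium it had 97.2 and 107 CPM in wild type and 164 and 161 CPM in Sl/Sl. The replicates of 3 of the 4 groups lay close together. On the log2 scale Flt1 rose over clusters by 2.72 ± 0.49 in wild type (adjusted p = 0.0176) and 2.57 ± 0.49 in Sl/Sl (adjusted p = 0.0405), with 2.65 ± 0.35 in the average (6.26-fold, adjusted p = 0.00204). Without clusters replicate 1 the Sl/Sl value was 3.46. In wild type the adjusted p was 0.105 without clusters replicate 2, and in Sl/Sl it lay between 0.126 and 0.151 without clusters replicate 2, endothelium replicate 1 or endothelium replicate 2.

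Flt4, at chr11:49423181-49466241 (mm9, plus strand), is the VEGF receptor of lymphatic vessels in the adult and of much of the early vasculature in the embryo. Its counts in wild type clusters were 225 and 5, and in Sl/Sl clusters 1098 and 217. Those in wild type endothelium were 2231 and 4044, and in Sl/Sl endothelium 2165 and 4381. Flt4 was the receptor with the widest spread within groups, and the low library, wild type clusters replicate 2, was also the one with the lowest endothelial markers. For Flt4 the log2 fold change was 4.89 ± 1.43 in wild type (29.7-fold, adjusted p = 0.0956), 2.76 ± 1.29 in Sl/Sl (adjusted p = 0.374) and 3.82 ± 0.96 in the average (adjusted p = 0.0355). Without wild type clusters replicate 2 the wild type value was 3.88 (adjusted p = 0.177), without wild type clusters replicate 1 it was 9.52, and it also missed the threshold without endothelium replicate 1 (5.37) or replicate 2 (4.13). The average was 6.14 without wild type clusters replicate 1 and 4.72 without Sl/Sl clusters replicate 1. It missed the threshold without Sl/Sl clusters replicate 2 (adjusted p = 0.104) or wild type endothelium replicate 2 (adjusted p = 0.1003).

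Among the co-receptors, Nrp1 lies at chr8:130882973-131029375 (mm9, plus strand) and was the member with the most reads in endothelium. It had 186 and 68.8 CPM in wild type clusters and 333 and 319 CPM in Sl/Sl clusters. In endothelium it had 1050 and 990 CPM in wild type and 992 and 1127 CPM in Sl/Sl. The endothelium libraries of both genotypes interleaved, and the Sl/Sl clusters lay between them and the wild type clusters. The log2 fold change of endothelium over clusters was 3.00 ± 0.40 in wild type (7.99-fold, adjusted p = 0.00504), 1.70 ± 0.38 in Sl/Sl (3.25-fold, adjusted p = 0.0746) and 2.35 ± 0.28 in the average (adjusted p = 0.00124). The wild type call held without each replicate in turn, with a value of 3.89 without clusters replicate 1, and the Sl/Sl call was lost without any 1 of its 4 libraries (adjusted p 0.205 to 0.297).

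Nrp2, at chr1:62749891-62865266 (mm9, plus strand), binds Vegfc as well as Vegfa and class 3 semaphorins. It had 6.64 and 3.74 CPM in wild type clusters and 11.7 and 9.09 CPM in Sl/Sl clusters. In endothelium it had 74.3 and 72.1 CPM in wild type and 113 and 49.5 CPM in Sl/Sl, every one above every cluster library. Nrp2 had a log2 fold change of 3.82 ± 0.62 in wild type (14.1-fold, adjusted p = 0.0113), 2.96 ± 0.60 in Sl/Sl (adjusted p = 0.0479) and 3.39 ± 0.43 in the average (10.5-fold, adjusted p = 0.00179). The call in Sl/Sl was lost without clusters replicate 1, clusters replicate 2 or endothelium replicate 1 (where the value was 2.25), at adjusted p-values of 0.157 to 0.262.

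The Tie receptors were also higher in endothelium in every library than in any cluster library. Tek, at chr4:94405980-94541667 (mm9, plus strand), had 152 and 25.8 CPM in wild type clusters and 243 and 57.1 CPM in Sl/Sl clusters. It had 591 and 542 CPM in wild type endothelium and 607 and 460 CPM in Sl/Sl endothelium. In both genotypes replicate 1 of the clusters held several times the level of replicate 2, and the endothelial markers were also higher there. Tek had a log2 fold change of 2.67 ± 0.81 in wild type (adjusted p = 0.106), 1.83 ± 0.79 in Sl/Sl (adjusted p = 0.329) and 2.25 ± 0.56 in the average (4.76-fold, adjusted p = 0.0352). Neither genotype alone passed in this fit, and in wild type the value without clusters replicate 1 was 4.46. DESeq2 gave Tek an adjusted p of 0.00178 in wild type and 0.0749 in Sl/Sl. The average was 3.15 without wild type clusters replicate 1 and 2.95 without Sl/Sl clusters replicate 1.

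Tie1, at chr4:118143796-118162454 (mm9, minus strand), had 124 and 12.1 CPM in wild type clusters and 120 and 47.7 CPM in Sl/Sl clusters. Endothelium held 361 and 259 CPM in wild type and 399 and 289 CPM in Sl/Sl. Replicate 1 of the wild type clusters was thus about as high as replicate 1 of the Sl/Sl clusters, and replicate 2 of the wild type clusters was the lowest of all. Tie1 had a log2 fold change of 2.19 ± 0.85 in wild type (adjusted p = 0.200), 2.04 ± 0.85 in Sl/Sl (adjusted p = 0.314) and 2.11 ± 0.60 in the average (4.33-fold, adjusted p = 0.0549). The wild type value was 4.67 without clusters replicate 1 (adjusted p = 0.0102), and the average was 3.36 without it. The call of the average was lost without Sl/Sl clusters replicate 2, Sl/Sl endothelium replicate 1 or either wild type endothelium library, at adjusted p-values of 0.107 to 0.161.

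Angpt1 was the member called in the other direction. It lies at chr15:42256213-42508523 (mm9, minus strand) and encodes the activating ligand of Tek. Its counts were 1935 and 1343 in wild type clusters and 1984 and 1014 in Sl/Sl clusters. The wild type endothelium libraries held 11 and 16, and those of Sl/Sl 118 each. All 4 cluster libraries were far above all 4 endothelium libraries. The log2 fold change of endothelium over clusters was -6.77 ± 0.67 in wild type (109-fold lower, adjusted p = 0.00153), -3.26 ± 0.56 in Sl/Sl (9.59-fold lower, adjusted p = 0.0247) and -5.02 ± 0.43 in the average (32.4-fold lower, adjusted p = 0.000253). In wild type and in the average the call held without each replicate in turn, and in Sl/Sl it was lost without clusters replicate 1 (-2.54, adjusted p = 0.116), endothelium replicate 1 (adjusted p = 0.169) or endothelium replicate 2 (adjusted p = 0.104). Hematopoietic, megakaryocyte and macrophage markers were higher in every cluster library than in any endothelium library, and mesenchymal and perivascular markers overlapped. Their part in the difference was not tested.

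Angpt2, the context-dependent antagonist of Tek, lies at chr8:18690263-18741562 (mm9, minus strand) and was unevenly detected. Its counts were 175 and 95 in wild type clusters but 1 and 474 in Sl/Sl clusters. They were 36 and 0 in wild type endothelium, where 0 allows up to 3, and 4 and 7 in Sl/Sl endothelium. The library with 474 counts, Sl/Sl clusters replicate 2, was the one with the highest mesenchymal and perivascular markers. For Angpt2 the log2 fold change was -2.96 ± 2.35 in wild type (adjusted p = 0.527), -4.80 ± 2.58 in Sl/Sl (adjusted p = 0.433) and -3.88 ± 1.74 in the average (adjusted p = 0.193). Without Sl/Sl clusters replicate 2 the Sl/Sl value turned to 2.69. In the average, DESeq2 gave Angpt2 an adjusted p of 0.0378.

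Vegfa, the main ligand of Kdr and Flt1, lies at chr17:46153943-46169326 (mm9, minus strand). It had 9.84 and 6.15 CPM in wild type clusters and 2.87 and 7.90 CPM in Sl/Sl clusters. Endothelium held 25.1 and 18.3 CPM in wild type and 28.0 and 26.2 CPM in Sl/Sl, so that the cell types did not overlap. For Vegfa the log2 fold change was 1.44 ± 0.86 in wild type (adjusted p = 0.390), 2.33 ± 0.88 in Sl/Sl (adjusted p = 0.276) and 1.88 ± 0.61 in the average (3.69-fold, adjusted p = 0.0873). The call in the average was lost without any 1 of the 8 libraries, at adjusted p-values of 0.108 to 0.226.

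**Figure D2:**
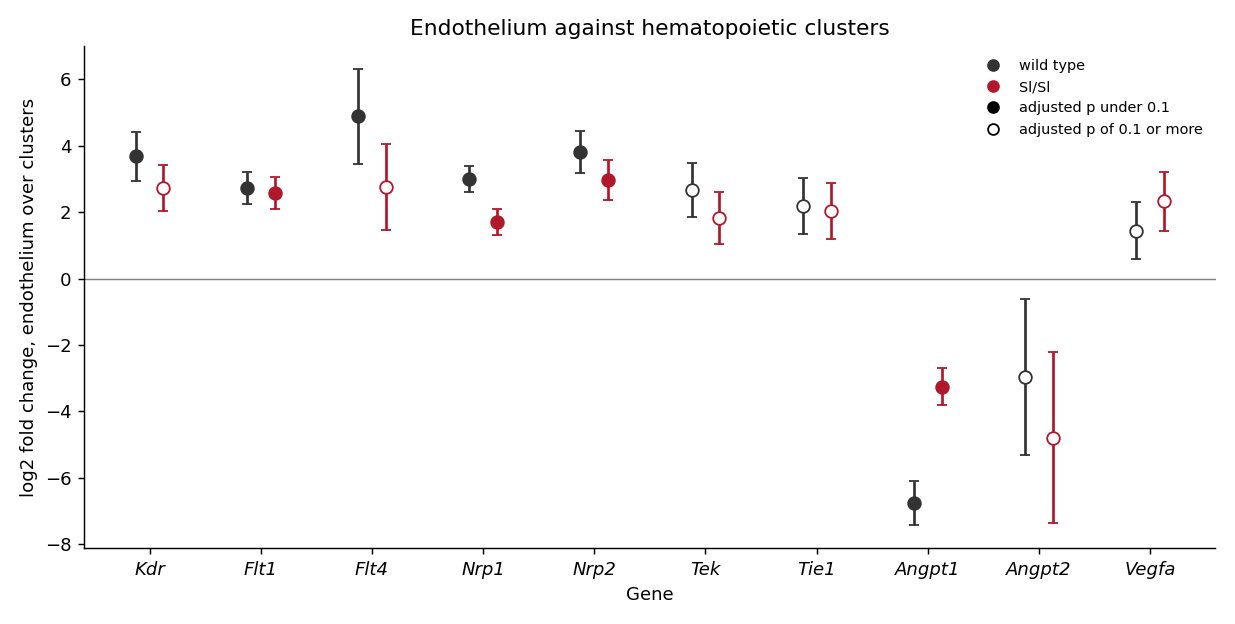
Log2 fold change of endothelium over clusters for the 10 genes in wild type (dark) and Sl/Sl (red), with bars of 1 SE from the edgeR fit on 8 libraries. Filled points passed an adjusted p of 0.1. The 7 receptors and Vegfa lie above 0 and both angiopoietins below it, with Angpt1 at -6.77 in wild type and -3.26 in Sl/Sl.

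The level of a receptor in a cluster library followed the endothelial markers of that library for some members and less so for others. Per 100 CPM of summed endothelial markers, Tek had 12.3 and 5.16 CPM in wild type clusters, 7.21 and 6.70 in Sl/Sl clusters, and between 5.74 and 8.51 CPM in endothelium. Flt1 had 1.19 to 3.14 CPM in clusters and 1.399 to 2.22 CPM in endothelium. Both ranges of clusters took in the whole range of endothelium. Kdr was at 1.89 to 4.62 CPM in clusters and 4.64 to 7.18 CPM in endothelium, so that its 4 endothelium libraries lay just above the 4 cluster libraries on this scale. Nrp1 had 15.0 and 13.8 CPM in wild type clusters, 13.4 to 15.1 CPM in endothelium, 9.90 CPM in Sl/Sl clusters replicate 1 and 37.3 CPM in Sl/Sl clusters replicate 2. The last of these is the library with the high mesenchymal markers. These ratios are descriptions and were not tested.

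**Figure D3:**
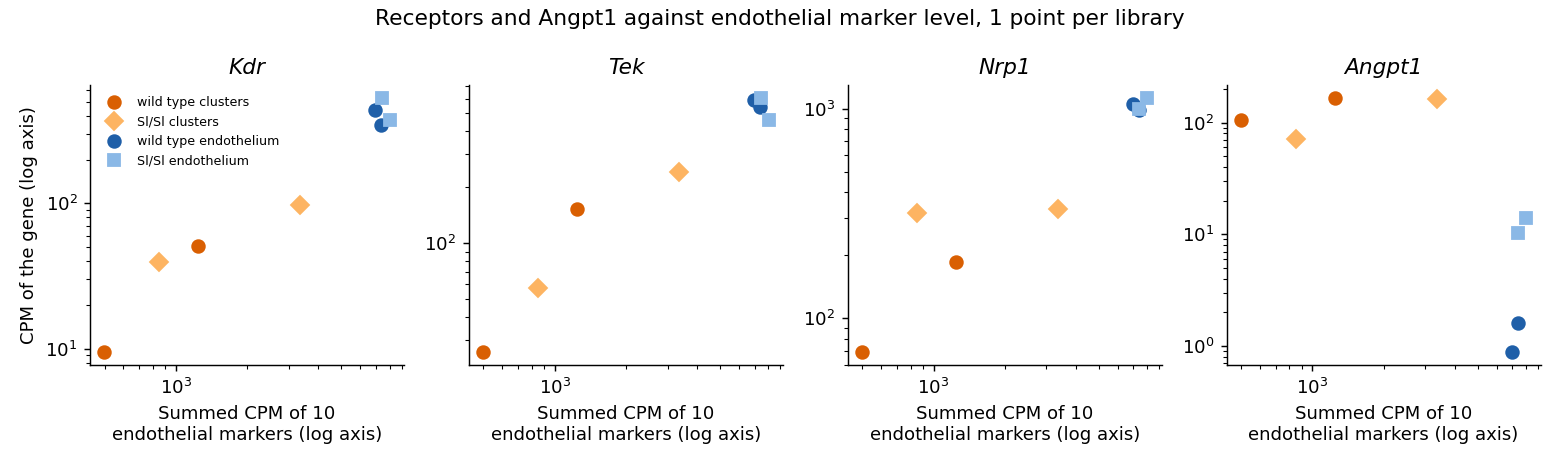
CPM of Kdr, Tek, Nrp1 and Angpt1 (log axes) against the summed CPM of 10 endothelial markers, 1 point per library, coloured by group. Kdr and Tek rise with the markers over the cluster libraries, Nrp1 stands above the other clusters in Sl/Sl clusters replicate 2 relative to its markers, and Angpt1 is low in the 4 endothelium libraries alone.

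Sl/Sl was compared with wild type within each cell type, to see whether loss of Kit ligand goes with a change of these genes. In clusters 0 of the 10 members passed the threshold, as did 0% of all genes tested (0 of 13908, of which 587, or 4.22%, had an unadjusted p under 0.05, with 1 member, Nrp1, among them). In endothelium 0 of 10 members and again 0% of all genes passed (580 genes, or 4.17%, and 1 member, Angpt1, at an unadjusted p under 0.05). DESeq2 called 1 member and 1.37% of genes in each of the 2 comparisons, and these members were Nrp1 in clusters and Angpt1 in endothelium. The median log2 fold change of the members was 0.79 in clusters and 0.18 in endothelium, beside 0.03 and -0.0014 for all genes.

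Nrp1 in clusters differed by a log2 fold change of 1.35 ± 0.38 (2.55-fold higher in Sl/Sl, unadjusted p = 0.00598, edgeR adjusted p = 0.756), and the 319 and 333 CPM of the Sl/Sl clusters did not overlap the 68.8 and 186 CPM of wild type. Nrp2 was also higher in both Sl/Sl cluster libraries, with a log2 fold change of 1.00 ± 0.57. The other 8 members overlapped between genotypes in clusters, where 32.7% of all genes did not. DESeq2 gave Nrp1 an adjusted p of 0.0629. Without each cluster library in turn its edgeR value lay between 0.80 and 2.24, the latter without wild type clusters replicate 1. The 2 Sl/Sl cluster libraries were high in different markers, replicate 1 in the endothelial and replicate 2 in the mesenchymal and perivascular ones. The remaining receptors had log2 fold changes of 0.30 (Tie1) to 2.41 (Flt4, SE 1.29) in clusters, all with an adjusted p of 1.

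In endothelium the receptors differed little between genotypes against their spread. Kdr had a log2 fold change of 0.22 ± 0.66, Flt4 of 0.28 ± 1.21, Nrp1 of 0.05 ± 0.37, Nrp2 of 0.15 ± 0.55, Tek of -0.09 ± 0.76 and Tie1 of 0.15 ± 0.82. Flt1 was higher in both Sl/Sl libraries, by 0.67 ± 0.46 (1.59-fold, unadjusted p = 0.177), and Vegfa by 0.32 ± 0.84. These 2 and Angpt1 were the members that did not overlap, where 28.5% of all genes did not.

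Angpt1 had the smallest p of the members, with 11 and 16 counts in wild type endothelium and 118 in each Sl/Sl endothelium library. In CPM these are 0.87 and 1.62 against 10.3 and 14.1. The log2 fold change was 3.29 ± 0.59 (9.81-fold, unadjusted p = 0.000313), which did not pass after adjustment over all genes (edgeR adjusted p = 1). It lay between 2.91 and 3.78 without each library in turn, and DESeq2 gave it an adjusted p of 0.000206. The Sl/Sl level was still 9.59-fold below that of Sl/Sl clusters. The hematopoietic markers overlapped between genotypes, with 95.9 and 101 CPM in the wild type libraries and 91.8 and 100.3 CPM in the Sl/Sl ones. Megakaryocyte markers were lower in Sl/Sl endothelium (2.45 and 6.08 CPM, against 30.3 and 12.1 CPM), but only 3 and 2 of these 8 were above 3 counts there, against 5 in each wild type library. The mesenchymal and perivascular markers overlapped (699.6 and 1461 CPM, against 2133 and 395 CPM). So did the macrophage markers (6.92 and 20.3 CPM, against 15.1 and 34.96 CPM) and the erythroid ones (32.3 and 109 CPM, against 41.5 and 54.5 CPM). What part such cells have in the Angpt1 difference was not tested.

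**Figure D4:**
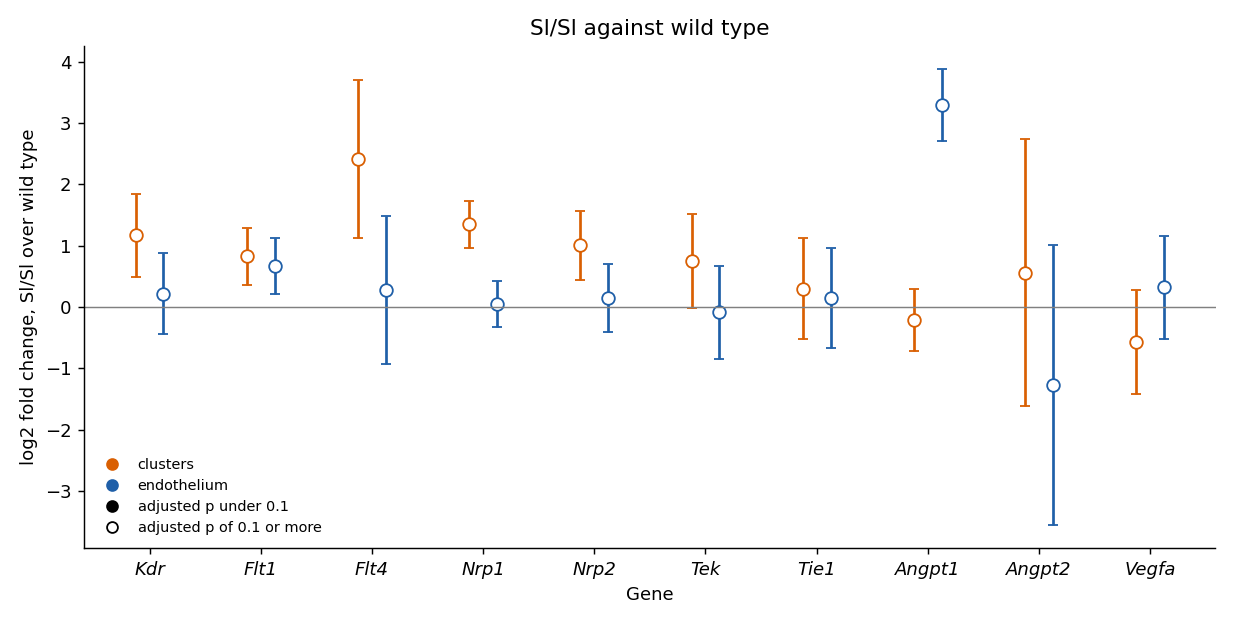
Log2 fold change of Sl/Sl over wild type for the 10 genes in clusters (orange) and endothelium (blue), with bars of 1 SE from the edgeR fit on 8 libraries. All points are open, since none passed an adjusted p of 0.1, and Angpt1 in endothelium at 3.29 and Nrp1 in clusters at 1.35 had the smallest p-values.

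Whether the genotype difference depends on the cell type was tested by the interaction, the genotype change in clusters minus that in endothelium. It gave 0 of 10 members and 0% of all genes at an adjusted p under 0.1 (736 genes, or 5.29%, and 2 members at an unadjusted p under 0.05). The 2 members were Angpt1, at -3.51 ± 0.77 on the log2 scale (unadjusted p = 0.00129, edgeR adjusted p = 0.902), and Nrp1, at 1.30 ± 0.53 (unadjusted p = 0.0366, edgeR adjusted p = 0.902). DESeq2 called 1.3% of genes in the interaction, Angpt1 among them with an adjusted p of 0.00918.

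The balance within pairs of related members was measured within each library, where scaling between libraries has no part. Flt1 made up 16.2% to 27.4% of the Flt1 and Kdr signal per kilobase in the 4 endothelium libraries and 20.6% to 26.5% in 3 of the cluster libraries, with 59.0% in wild type clusters replicate 2. Tie1 made up 36.6% to 44.4% of Tie1 and Tek in endothelium and 36.4% to 50.3% in clusters. Nrp2 was 3.10% to 7.69% of both neuropilins in endothelium and 2.05% to 3.84% in clusters. For each of the 5 ratios the values of the 4 endothelium and the 4 cluster libraries overlapped. The smallest p possible in the exact permutation test (2-sided) was 0.0286. After adjustment over 5 ratios, 1 ratio alone at that p could not pass 0.1, and a call needed more than 1 ratio at that p. The exact permutation test gave its smallest value, p = 0.0571 (adjusted p = 0.286), for Nrp2 to Nrp1, with a difference of 0.92 on the log2 scale. For the other ratios the exact permutation test gave p = 0.229 to 0.743.

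Flt4 against Kdr split the endothelium libraries by number. Flt4 was 27.6% of the 2 in replicate 1 of wild type endothelium and 24.9% in replicate 1 of Sl/Sl endothelium. In replicate 2 it was 52.6% in wild type and 56.7% in Sl/Sl, with Flt4 higher and Kdr lower in both. No source used here says what the replicate numbers share. In clusters the share was 4.05% to 46.5%.

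**Figure D5:**
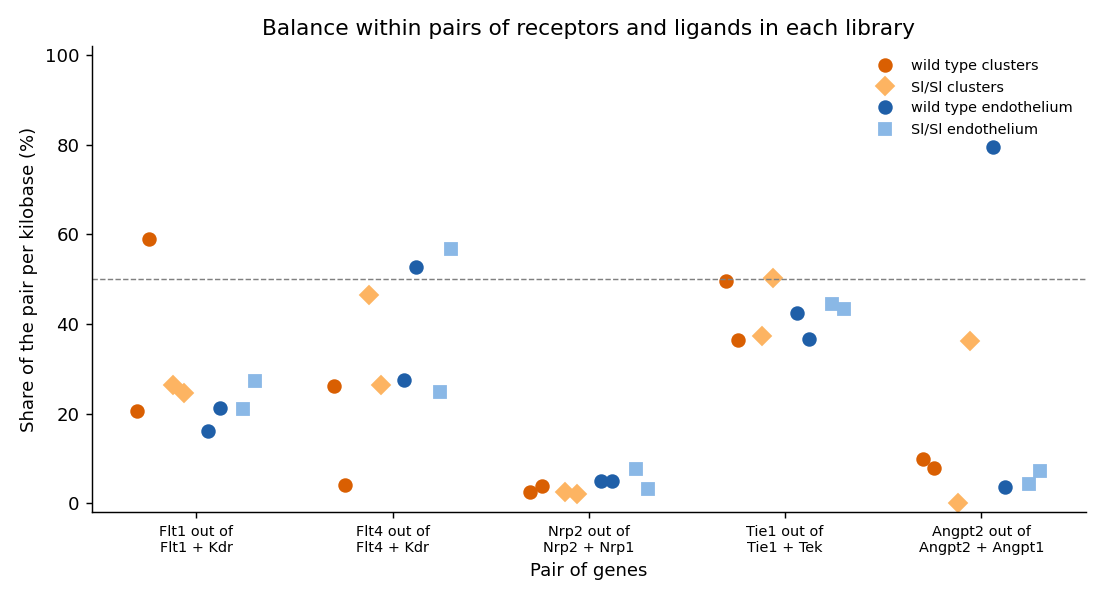
Share that 1 member makes up of a pair, per kilobase and in percent, in each of the 8 libraries, coloured by group, with a dashed line at 50%. Tie1 and Tek keep a like balance in all libraries, Flt4 and Kdr separate the endothelium libraries into 24.9% and 27.6% against 52.6% and 56.7%, and Angpt2 is 79.4% of the angiopoietins in wild type endothelium replicate 1, where both are low.

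The rest of the 2 pathways was followed through 5 lists. Of the further ligands and their processing factors, 2 of 6 tested genes rose in endothelium in the average and 0 fell, with a median log2 fold change of -0.04, where 8.48% of all genes rose, 8.12% fell and the median was -0.07. Vegfc, the ligand of Flt4, had 120 and 209 CPM in wild type endothelium and 234 and 189 CPM in Sl/Sl endothelium, against 25.8 to 68.1 CPM in clusters. It rose by 1.98 ± 0.33 on the log2 scale (adjusted p = 0.00599) and passed in each genotype. Pgf, a ligand of Flt1, rose by 2.24 ± 0.76 (adjusted p = 0.0979) but passed in neither genotype alone. Its value was 3.49 in wild type (edgeR adjusted p = 0.132) and 0.98 in Sl/Sl (edgeR adjusted p = 0.722). Vegfb was at 60 to 374 counts in all libraries with a log2 fold change of -0.76 ± 0.64, and Angpt4 had 0 counts in all 8.

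Of the genes that relay VEGF receptor signals, 4 of 16 tested rose in endothelium in the average and 1 fell (8.48% and 8.12% of all genes), with a median log2 fold change of 0.71. Those that rose were Ptk2, the focal adhesion kinase (1.94 ± 0.35, adjusted p = 0.00884), Nck1, an adaptor (1.01 ± 0.23, adjusted p = 0.0247), Nos3, the endothelial nitric oxide synthase (2.56 ± 0.65, adjusted p = 0.0380), and Yes1, a Src family kinase (1.33 ± 0.45, adjusted p = 0.0979). Prkca, a protein kinase C, fell by 2.80 on the log2 scale (SE 0.82, adjusted p = 0.0595).

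In the list for Tie receptor signaling 2 of 9 rose and 1 fell, beside 8.48% and 8.12% of all genes, with a median log2 fold change of 0.04. Ptprb, the phosphatase VE-PTP that acts on Tek, had 355 to 674 CPM in endothelium and 17.9 to 133 CPM in clusters (log2 fold change 2.72 ± 0.55, adjusted p = 0.0146). Foxo1, which Tek signaling holds in check through Akt, rose by 1.59 ± 0.41 (adjusted p = 0.0389). Dok2, an adaptor of Tek that is also made by blood cells, fell by 4.05 on the log2 scale (SE 0.96, adjusted p = 0.0287). Of 9 genes of oxygen sensing upstream of Vegfa 1 was called, Epas1, which encodes HIF2alpha (3.09 ± 1.03, adjusted p = 0.0938), and the median was 0.22. With 16.6% of all genes called, this count does not set the list apart. Hif1a lay at 118 to 182 CPM in all libraries.

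Among 12 genes known to respond to VEGF, 5 rose in endothelium in the average and 0 fell, beside 8.48% and 8.12% of all genes, with a median log2 fold change of 1.87. Ets1 rose in each genotype and by 2.44 ± 0.35 in the average (adjusted p = 0.00307). Dll4, the Notch ligand of arterial and tip cells, rose by 3.71 ± 0.77 (adjusted p = 0.0163), Cxcr4 by 2.66 ± 0.65 (adjusted p = 0.0322) and Klf4 by 1.68 ± 0.48 (adjusted p = 0.0537). Esm1 was called as well, with 194 to 293 counts in the endothelium libraries and 0, 0, 11 and 0 in the cluster libraries. In the comparisons of genotypes and in the interaction 0 genes of the 5 lists passed, as did 0% of all 13908 genes. Between genotypes in clusters, 4 of the 12 VEGF-responding genes had an unadjusted p under 0.05 (edgeR), where 4.22% of all genes did. Of the further ligands 1 of 6 did, Pgf, and of the lists for VEGF receptor signaling, Tie receptor signaling and oxygen sensing 0. The list of VEGF-responding genes was chosen with earlier results known, and 5 of its 12 genes rose in endothelium. Endothelial markers stood at 3363 CPM in Sl/Sl clusters replicate 1, against 499 to 1242 CPM in the other cluster libraries. What part this has in the 4 genes was not tested.

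The genes whose log2 CPM was most like that of each member over the 8 libraries were found across all 13908 genes, 2 for each. Kdr went with Ltbp4 (r = 0.999) and Col4a2 (0.997), Tie1 with Sox17 (0.997) and Col18a1 (0.995), Nrp1 with Pmepa1 (0.998) and Rhoj (0.996), and Tek with Mall (0.996) and Aplnr (0.992). Flt4 went with Sncg (0.990) and Crip2 (0.988), Flt1 with Ssu2 (0.992) and Tlr3 (0.990), and Nrp2 with S100a11 (0.993) and Ttc23 (0.988). The ligands had Atp2a3 (0.984) and C330027C09Rik (0.983) beside Angpt1, Mid1 (0.980) and Ssfa2 (0.972) beside Vegfa, and E130018N17Rik (0.963) and Rragc (0.947) beside Angpt2. The 8 points share the split into 2 cell types and were searched for the highest values, so these are descriptions of likeness only. Among the members, Tek and Tie1 were the most alike (r = 0.982), and Angpt1 ran against all receptors (r from -0.857 with Nrp2 to -0.635 with Flt4).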

How the data were processed

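Per the labels, RNA of 8 sorted samples was sequenced with SMARTSEQ2, which attaches no molecular identifiers, so a limit from a count of 0 covers the error of counting alone. Reads were aligned by the authors to mm9 with STAR 2.4.2a, lanes were merged, and the authors deposited raw counts per gene from featureCounts (Subread 1.4.5). The annotation, strand setting and treatment of multiply mapped reads are not given in the sources used here.

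Here, counts were tested with edgeR 4.0.16 (R 4.3.3): TMM, filterByExpr on the 4 groups, 1 quasi-likelihood fit (legacy option) on 8 libraries with 4 residual degrees of freedom, Benjamini-Hochberg over all genes, threshold 0.1. The common dispersion was 0.667. Counts were also simulated for wild type endothelium against clusters, with 200 genes changed in each of 5 runs. There, 24.6% of log2 changes of 2 and 58.2% of changes of 4 were recovered over 13959 genes. Unchanged genes made up 17.4% of calls, a share above the threshold of 0.1. The real comparison called 1146 genes, so these shares need not hold for it. Totals were scaled by TMM for CPM and left plain for RPKM. log2 CPM had a prior count of 2. Ratios had 0.5 counts added and exact permutation tests.

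The members and lists were chosen with earlier results of these data known. Named are all members, the genes of each list with the smallest p (up to 5, called ones shown), the 2 genes most like each member, Kitl and the sort markers. Vegfb, Angpt4 and Hif1a were named after their values were seen. The study calls the 2 libraries of a group biological replicates, from pooled embryos of 1 genotype. Which pool or sort each came from is not given in the sources used here, and p-values measure the spread between these samples. Alternatives were DESeq2 1.42.0, RLE factors, no filter, a filter of 10 counts in 4 libraries, a threshold of 0.05, a replicate block, fits on 4 libraries, TMM-scaled RPKM, 2 counts added to ratios, and each replicate left out. A fit without the legacy option was added after seeing the data.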

Additional observations from a re-analysis of the deposited data

How the results depend on the processing

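With 2 libraries a group and a common dispersion of 0.667, counts of calls moved with the setting. The cause was not tested unless the setting itself has fewer libraries. In wild type, DESeq2, no filter, the fit without the legacy option and the replicate block each called 8 members, Tek and Tie1 among them. RLE factors and the filter of 10 counts each called 6, and the threshold of 0.05 and the fit on 4 libraries each called 5. In the average, DESeq2 and the fit without the legacy option each called 10 members, Angpt2 among them. No filter called 9 members there, with Angpt2 and without Vegfa. In wild type endothelium against clusters, where 1146 genes and 6 members were called, a threshold of 0.05 called 657 genes, DESeq2 2580, no filter on low counts 1990, and leaving out each replicate 412 to 839 genes, the former without clusters replicate 2 (486 without endothelium replicate 1 and 508 without endothelium replicate 2), and 4 to 8 members. The 4 members were left without clusters replicate 2 or endothelium replicate 1, and the 8 without clusters replicate 1. In Sl/Sl, where 393 genes and 4 members were called, the threshold of 0.05 gave 222 genes, DESeq2 1614 genes and 8 members, no filter 1266 genes and 8 members, the fit without the legacy option 652 genes and 6 members, the fit on 4 libraries 211 genes and 2 members, and leaving out a replicate 115 to 272 genes and 0 to 1 members, so each of the 4 libraries decides that count. In the average, where 2310 genes and 9 members were called, the threshold of 0.05 gave 1488 genes, DESeq2 3616, and leaving out a replicate 1438 (without Sl/Sl clusters replicate 2) to 1983 genes and 6 to 8 members. The lower of these, 6 members, came without Sl/Sl clusters replicate 2 or wild type endothelium replicate 2.

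For Sl/Sl against wild type in clusters DESeq2 gave 175 genes and 1 member, no filter 253 genes and 3 members (Kdr, Flt4 and Nrp1), the fit without the legacy option 7 genes, and leaving out a replicate 0 to 13 genes (8 without wild type clusters replicate 1, 13 without Sl/Sl clusters replicate 2) and 0 to 1 members. In endothelium DESeq2 gave 179 genes and 1 member, no filter 65 genes and 1 member, the fit on 4 libraries 2 genes, and leaving out a replicate 0. For the interaction DESeq2 gave 175 genes and 1 member, no filter 179 genes and 3 members, and leaving out a replicate 0 to 4 genes (4 without wild type clusters replicate 1, 3 without Sl/Sl clusters replicate 2, 1 without Sl/Sl endothelium replicate 2) and 0 members.

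The fold changes of members turned sign in 26 of 320 fits without 1 library and in 0 of 398 other alternatives, of which 361 kept their side of the threshold, 32 gained a call and 5 lost it. The ranges over left-out replicates, on the log2 scale, were as follows where the sign turned. In Sl/Sl endothelium against clusters Angpt2 ran from -5.79 to 2.69. Between genotypes in clusters Flt1 ran from -0.0671 to 1.38, Tek from -0.64 to 2.54, Tie1 from -0.57 to 2.78, Angpt1 from -0.94 to 0.26 and Angpt2 from -6.92 to 1.56. Between genotypes in endothelium Kdr ran from -0.0659 to 0.45, Flt4 from -0.64 to 1.00, Nrp1 from -0.0476 to 0.14, Nrp2 from -0.57 to 0.62, Tek from -0.30 to 0.0917, Tie1 from -0.10 to 0.41 and Angpt2 from -2.27 to 5.78. In the interaction Flt1 ran from -0.74 to 0.70, Tek from -0.55 to 2.63, Tie1 from -0.72 to 2.63 and Angpt2 from -5.65 to 2.84. The ratio of Tie1 to Tek ran from -0.24 to 0.0367 and that of Angpt2 to Angpt1 from -0.23 to 2.86.

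The replicate numbers were not taken to pair the samples, since no source used here ties a number to a sort. The correlations of their deviations ran from -0.111 to 0.157. Taken over all genes tested, these cannot tell whether a number marks a shared sort. Kdr, Tek and Tie1 were higher in replicate 1 than in replicate 2 of every group. With the replicate number as a block, 8 genes were called between genotypes in clusters, and of 60 fold changes of members 56 kept their call or lack of one. Tek (3.15, adjusted p = 0.0169, edgeR) and Tie1 (2.71, adjusted p = 0.0449) passed in wild type and Kdr (2.87, adjusted p = 0.0191) in Sl/Sl, and Vegfa missed the threshold in the average (1.89, adjusted p = 0.121).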
